A study of Mus musculus with 22 samples.

Results

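The 35 genes described here encode the sensors, transcription factors, chaperones and degradation machinery of the unfolded protein response and of endoplasmic reticulum (ER)-associated degradation. Each was matched by symbol, and each was found once among the 46078 genes of the count table. RNA sequencing was performed on the distal colon of 22 mice, to compare C57BL/6 mice with Winnie mice without and with rectal prolapse. Winnie mice carry a missense mutation in Muc2, the gene of the main secreted mucin of goblet cells, and develop colitis without any further treatment. The groups were 8 C57BL/6 mice (wild type, 14 weeks, 4 males and 4 females), 7 Winnie mice (14 weeks, 3 males and 4 females) and 7 Winnie-Prolapse mice (Winnie mice with prolapse, severely inflamed, 18 weeks, 4 males and 3 females). No mouse was given a drug or other agent according to the labels. Age goes with prolapse, so the effects of age and prolapse cannot be told apart. The wild-type mice came from the same breeding colony. Whole distal colon was used, not a sorted cell type.

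Proteins that fold poorly in the ER are sensed by 3 membrane proteins. IRE1 (Ern1, and Ern2 in mucus-secreting epithelium) splices the Xbp1 transcript, ATF6 (Atf6, Atf6b) is cut to release a transcription factor, and PERK (Eif2ak3) slows translation while ATF4 is made. The targets widen the ER's capacity for folding and carry misfolded proteins back to the cytosol for destruction by the proteasome. Goblet cells and plasma cells, which secrete large amounts of protein, depend on this response. By textbook assignment, 9 members were placed in the IRE1 arm, 10 in the ATF6 arm, 7 in the PERK arm and 9 in no arm. Several genes respond to more than one arm in cells, so the division is a convention. Splicing of Xbp1, cutting of ATF6 and phosphorylation are not visible in counts per gene.

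The promoters are shown because many members share a documented control sequence, the ER stress response element (ERSE), made of CCAAT and CCACG separated by 9 bases. RefSeq promoters (GRCm38.p6, 250 bases before to 50 after the start site) were listed for 29 of the 35 members. Atf6, Ern2, Manf, Derl1, Hyou1 and Ppp1r15b had no entry. Searched on both strands, the ERSE was found in 8 of the 29 member genes (27.6%) and in 39 of all 32851 promoters (0.119%). Below, each window is written 5′ to 3′ in the direction of its gene, with the letters of the element in capitals. The element of Hspa5 lies before the RefSeq start site but inside an exon of GENCODE M21, whose Hspa5 locus starts further upstream, so less flanking sequence is shown. An element on the opposite strand reads CGTGG first and ATTGG last. The number after the name is the distance of the motif's first base from the start site.
Hspa5, -65, chr2:34772020-34772048, + strand: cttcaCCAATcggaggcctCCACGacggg
Hsp90b1, -212, chr10:86705618-86705676, - strand: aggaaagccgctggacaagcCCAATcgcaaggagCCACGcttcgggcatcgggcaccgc
Hsp90b1, -107, chr10:86705513-86705571, - strand: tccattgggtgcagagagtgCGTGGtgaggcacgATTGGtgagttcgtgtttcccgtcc
Calr, -162, chr8:84847055-84847113, - strand: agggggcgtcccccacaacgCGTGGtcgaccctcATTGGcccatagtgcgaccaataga
Canx, -145, chr11:50325780-50325838, - strand: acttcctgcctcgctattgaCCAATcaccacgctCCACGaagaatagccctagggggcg
Creld2, -126, chr15:88819500-88819558, + strand: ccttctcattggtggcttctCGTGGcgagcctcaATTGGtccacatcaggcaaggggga
Derl3, -156, chr10:75893222-75893280, + strand: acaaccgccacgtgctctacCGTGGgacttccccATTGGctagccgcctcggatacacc
Dnajc3, -105, chr14:118937807-118937865, + strand: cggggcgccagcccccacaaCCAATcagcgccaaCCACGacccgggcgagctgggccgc
Syvn1, -44, chr19:6046512-6046570, + strand: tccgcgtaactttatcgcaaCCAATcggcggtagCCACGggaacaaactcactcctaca

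The related element ERSE-II, ATTGG and CCACG separated by 1 base, was found in 2 members, Herpud1 and Dnajb11, and in 12 of all promoters (0.0365%). That of Herpud1 lies 52 bases before the start site and is shown because Herpud1, a membrane protein that organises the degradation complex, had the largest log2 fold change in Winnie after Derl3.
Herpud1, -52, chr8:94386357-94386407, + strand: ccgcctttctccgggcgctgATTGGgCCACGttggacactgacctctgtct
The letters TGACGTGG, the core bound by spliced XBP1 and ATF6, were found in 0 members and in 222 promoters (0.676%). The letters TGATGCAA, bound by ATF4 dimers, were found in Atf3 and Herpud1 and in 294 promoters (0.895%). A match is a description of these letters in these windows, and the absence of a match says nothing about the factor.

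Sequencing depth ranged from 24.8 to 36.3 M counts per library. Levels below are normalised CPM, the share of a gene in the counts of its library scaled by TMM factors, and changes are log2 fold changes from edgeR's quasi-likelihood test with Benjamini-Hochberg adjustment over all genes tested. All 35 members passed the low-count filter in every comparison. A member was said to rise or fall at an adjusted p under 0.05. The stricter limit used by the study (adjusted p under 0.001 and at least 1.5-fold) is given with the counts, and not at every gene that passed it. Intervals of a change are 2 SE to each side. In Winnie-Prolapse replicate 6, milk protein genes summed to 225233 normalised CPM against at most 6.28 in any C57BL/6 or Winnie library, and its TMM factor was the lowest at 0.834. Winnie replicates 3 and 5 had 27 and 30 of the 35 members within the C57BL/6 range, whereas the other Winnie libraries had 7 to 11. C57BL/6 replicate 7 had the highest level of its group for 15 members and the lowest for 10. Marker sums of this library also stood apart. It was high in smooth muscle markers (11622.5 normalised CPM against 6417 to 8699 in the other C57BL/6 libraries) and colonocyte markers (11273 against 5995 to 10064) and low in macrophage markers (87.0 against 162 to 236; Lyz2, C1qa and C1qb highest). Its sums of 3 further lists were each carried by nearly 1 gene. Ly6g was 3.67 there against a C57BL/6 median of 282, while the neutrophil genes S100a8 and S100a9 reached at most 0.586 in any C57BL/6 library. Cela1 was 51.5 against a median of 224, with the acinar genes Prss2 and Cpa1 at no more than 0.155, and Sprr1a was 43.0 against a median of 4.32, with the squamous genes Krt14 and Krt5 at no more than 2.25. Without it, 21 members instead of 19 rose in Winnie, and 26 rose in Winnie-Prolapse as with it, 17 instead of 14 past the stricter limit. Over all genes, the calls then went from 4441 to 4709 in Winnie, and the stricter calls in Winnie-Prolapse from 3186 to 3478. Without Winnie-Prolapse replicate 6, 26 members rose and 1 fell in Winnie-Prolapse, and 12 passed the stricter limit, as did 2692 instead of 3186 of all genes.

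Per kb of annotated exon (GENCODE M21), the calcium-binding chaperone Calr was the most abundant member in C57BL/6 colon, with 234.7 ± 19.8 CPM per kb (SD, n = 8). Hsp90b1 (86.2 ± 13.6), Canx (77.2 ± 5.19) and Hspa5 (67.3 ± 13.95) followed, and neighbours among these 3 differed by less than the larger SD of the pair. Among the sensors Ern2 stood at 27.5 ± 4.07 CPM per kb, above the others, which had 17.8 ± 0.81 for Atf6b, 6.77 ± 0.917 for Ern1, 7.78 ± 1.39 for Atf6 and 5.87 ± 0.682 for Eif2ak3. Derl3 was the lowest of all, at 0.605 ± 0.271 CPM per kb. Among the 35 loci, 12 overlap an annotated gene on the opposite strand and 6 one on the same strand, and the strand setting of the counting is not given in the sources used here. Ddit3 overlaps Mars and Manf overlaps Dcaf1 and Rbm15b, and a second annotated gene named Ddit3 lies on the same strand at the Ddit3 locus. Syvn1 overlaps Mrpl49, Derl2 overlaps Mis12 and Ppp1r15a overlaps Tulp2. The counts of these members are less certain.

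**Figure D1:**
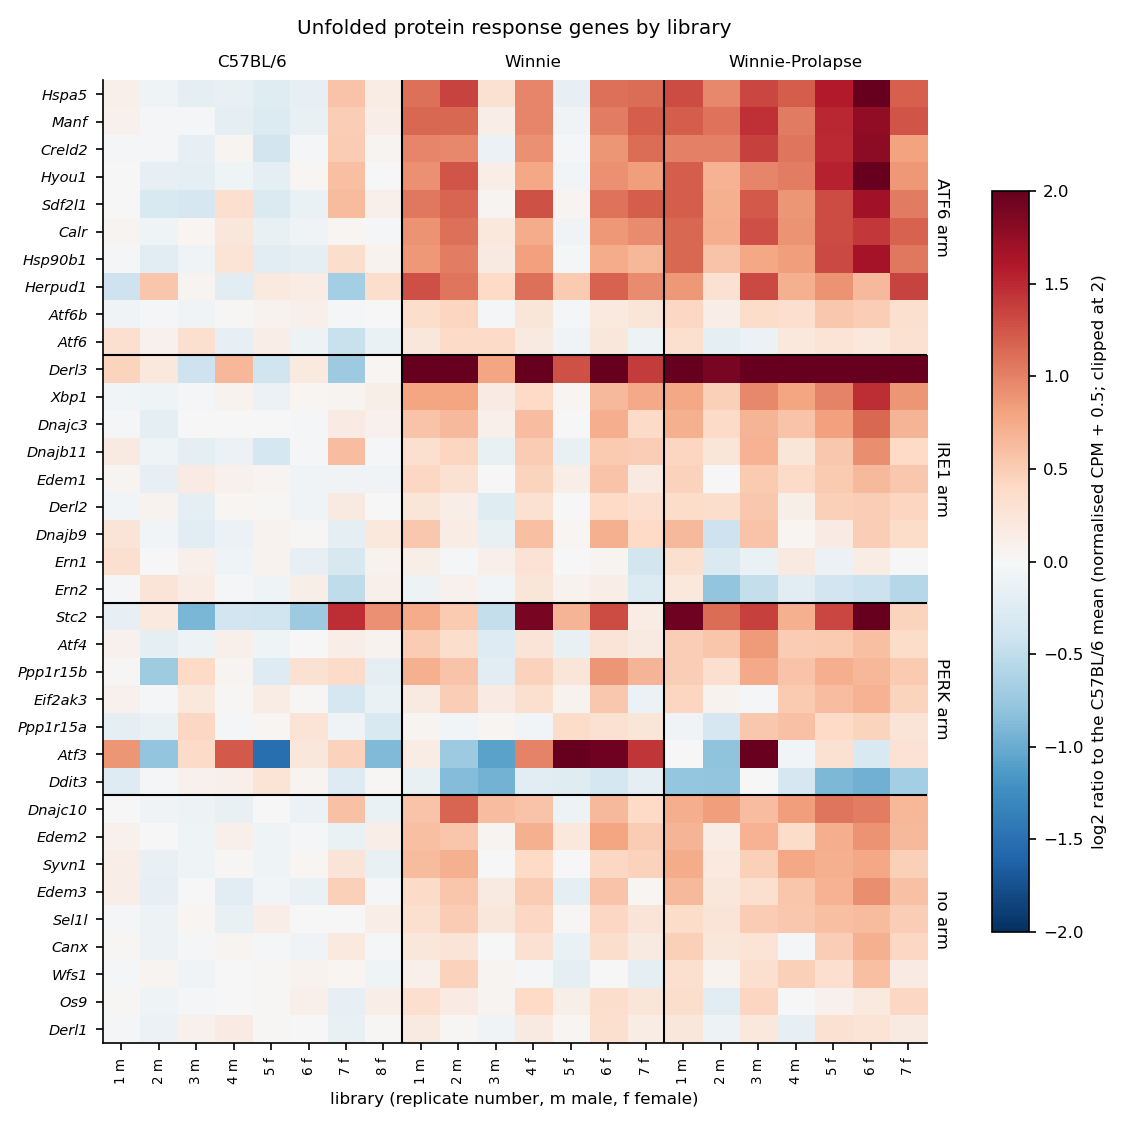
Log2 ratio of each of the 35 members (rows, by arm) in each of the 22 libraries (columns, with sex) to the C57BL/6 mean of normalised CPM, with 0.5 added, red higher and blue lower, clipped at 2. Most ATF6 arm genes and Derl3 are red in most Winnie and all Winnie-Prolapse libraries, and Winnie replicates 3 and 5 are paler.

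Winnie was compared with C57BL/6 to ask which members change in colitis at the same age. ER chaperones and degradation genes were higher in Winnie, led by Derl3, Herpud1, Sdf2l1, Hspa5 and Manf. Of the 35 members, 19 rose, 1 fell and 15 did not pass the test. Among all 17289 genes tested, 13.8% rose and 11.9% fell. The median log2 fold change was 0.36 over the members and -0.0068 over all genes. None of the members passed the stricter limit in edgeR, which 0.0868% of all genes passed upwards and 0.00578% downwards, although 24 members had an unadjusted p under 0.05, as had 6901 of all genes. DESeq2 put 6 members past the stricter limit (Hspa5, Herpud1, Sdf2l1, Manf, Derl3 and Calr) among 1205 of all 21898 genes it tested, and limma-voom put 0 of all 17289 genes past it. Without Winnie replicate 5, edgeR put 5 members past it (Hspa5, Xbp1, Manf, Derl3 and Calr) and 22 rose, while over all genes the stricter calls went from 16 to 677 and all calls from 4441 to 6151. Without replicate 3, 0 members passed it and 21 rose, with 14 stricter calls and 4217 calls over all genes. The levels of the groups did not overlap for 1 member, Derl3, which lay higher in Winnie, against 0.711% of all genes higher and 0.885% lower.

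Winnie-Prolapse was compared with C57BL/6 to ask which members change in severe disease. Chaperones and degradation genes were higher again, led by Derl3, Hspa5, Manf, Creld2 and Hyou1, and 7 of the 12 chaperones rose by more than 2-fold. Of the 35 members, 26 rose, 2 fell and 7 did not pass, where 26.5% of all 17397 genes rose and 26% fell. The stricter limit was passed upwards by 14 members and downwards by 0, against 9.84% and 8.47% of all genes. The groups did not overlap for 16 members, all higher in Winnie-Prolapse, against 9.06% of all genes higher and 7.52% lower. The median log2 fold change was 0.54 over the members and -0.0107 over all genes. Both comparisons use the same C57BL/6 mice.

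Hspa5 (chromosome 2, 34771970 to 34777547) encodes BiP, the Hsp70 of the ER that also holds the sensors inactive. Its level was 236 to 416 normalised CPM in C57BL/6 (median 258), 251 to 713 in Winnie (median 599.5) and 548 to 1184 in Winnie-Prolapse (median 690.0). Of the 7 Winnie libraries, 5 lay above all C57BL/6 libraries, with replicates 3 and 5 within the range, and all 7 Winnie-Prolapse libraries lay above it. On the log2 scale Hspa5 rose by 0.89 ± 0.19 (SE) in Winnie (adjusted p = 0.00667) and by 1.40 ± 0.17 in Winnie-Prolapse (adjusted p = 9.17e-06).

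Calr (chromosome 8, 84841850 to 84846934), the lectin chaperone calreticulin, ranged from 605 to 790 normalised CPM in C57BL/6 (median 673). Its range was 639 to 1453 in Winnie (median 1235) and 1112 to 1806 in Winnie-Prolapse (median 1523). The lowest Winnie value came from replicate 5, and the Winnie-Prolapse and C57BL/6 ranges did not meet. Calr rose by 0.72 ± 0.15 in Winnie (adjusted p = 0.00537) and by 1.14 ± 0.11 in Winnie-Prolapse (adjusted p = 1.23e-06). Its membrane-bound partner Canx, also a lectin chaperone, differed by 0.18 ± 0.08 in Winnie (adjusted p = 0.117) and rose by 0.38 ± 0.10 in Winnie-Prolapse (adjusted p = 0.00466).

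Manf, a secreted ER stress protein, ranged from 68.5 to 116 normalised CPM in C57BL/6 (median 80.8), from 78.8 to 193 in Winnie (median 169) and from 171 to 284 in Winnie-Prolapse (median 198). It rose by 0.86 ± 0.19 in Winnie (adjusted p = 0.00614) and by 1.34 ± 0.13 in Winnie-Prolapse (adjusted p = 1.61e-06). Hyou1, the exchange factor of BiP, ranged from 66.6 to 116 (median 73.4), from 73.1 to 182 (median 137) and from 124 to 310 (median 156) in the same order of groups. Hyou1 rose by 0.73 ± 0.18 (adjusted p = 0.0104) and by 1.24 ± 0.19 (adjusted p = 7.78e-05). For both genes the highest C57BL/6 level came from replicate 7 and the highest of all from Winnie-Prolapse replicate 6.

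The ATF6 arm chaperones Hsp90b1, Creld2 and Sdf2l1 changed by like amounts. Hsp90b1, the Hsp90 of the ER, rose by 0.64 ± 0.15 in Winnie (adjusted p = 0.00899) and by 1.08 ± 0.15 in Winnie-Prolapse (adjusted p = 4.49e-05). Creld2, an ER-resident disulphide isomerase-like protein, rose by 0.74 ± 0.18 (adjusted p = 0.0116) and by 1.25 ± 0.15 (adjusted p = 1.235e-05). Sdf2l1, which works with BiP and Dnajb11, rose by 0.90 ± 0.21 (adjusted p = 0.00887) and by 1.16 ± 0.17 (adjusted p = 6.24e-05). In Winnie-Prolapse each of these 3 genes lay above the C57BL/6 range in 7 of 7 libraries.

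Among the 12 chaperones and their cofactors, 10 rose in Winnie and 11 in Winnie-Prolapse, 9 of them past the stricter limit. Among all genes, 13.8% rose in Winnie and 26.5% in Winnie-Prolapse, where 9.84% passed the stricter limit upwards. The J-domain cofactors of BiP were split. Dnajc3 rose by 0.46 ± 0.10 in Winnie (adjusted p = 0.00777) and by 0.73 ± 0.10 in Winnie-Prolapse (adjusted p = 2.84e-05). Dnajc10, a disulphide reductase, rose by 0.58 ± 0.15 (adjusted p = 0.0143) and 0.82 ± 0.12 (adjusted p = 5.29e-05). Dnajb11 did not pass in Winnie (0.29 ± 0.15, adjusted p = 0.153) and rose in Winnie-Prolapse (0.48 ± 0.14, adjusted p = 0.0103). Dnajb9 rose in Winnie by 0.36 ± 0.12 (adjusted p = 0.0433), a call kept in 5 of the 15 fits that leave out a library, and did not pass in Winnie-Prolapse (0.29 ± 0.13, adjusted p = 0.0715).

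**Figure D2:**
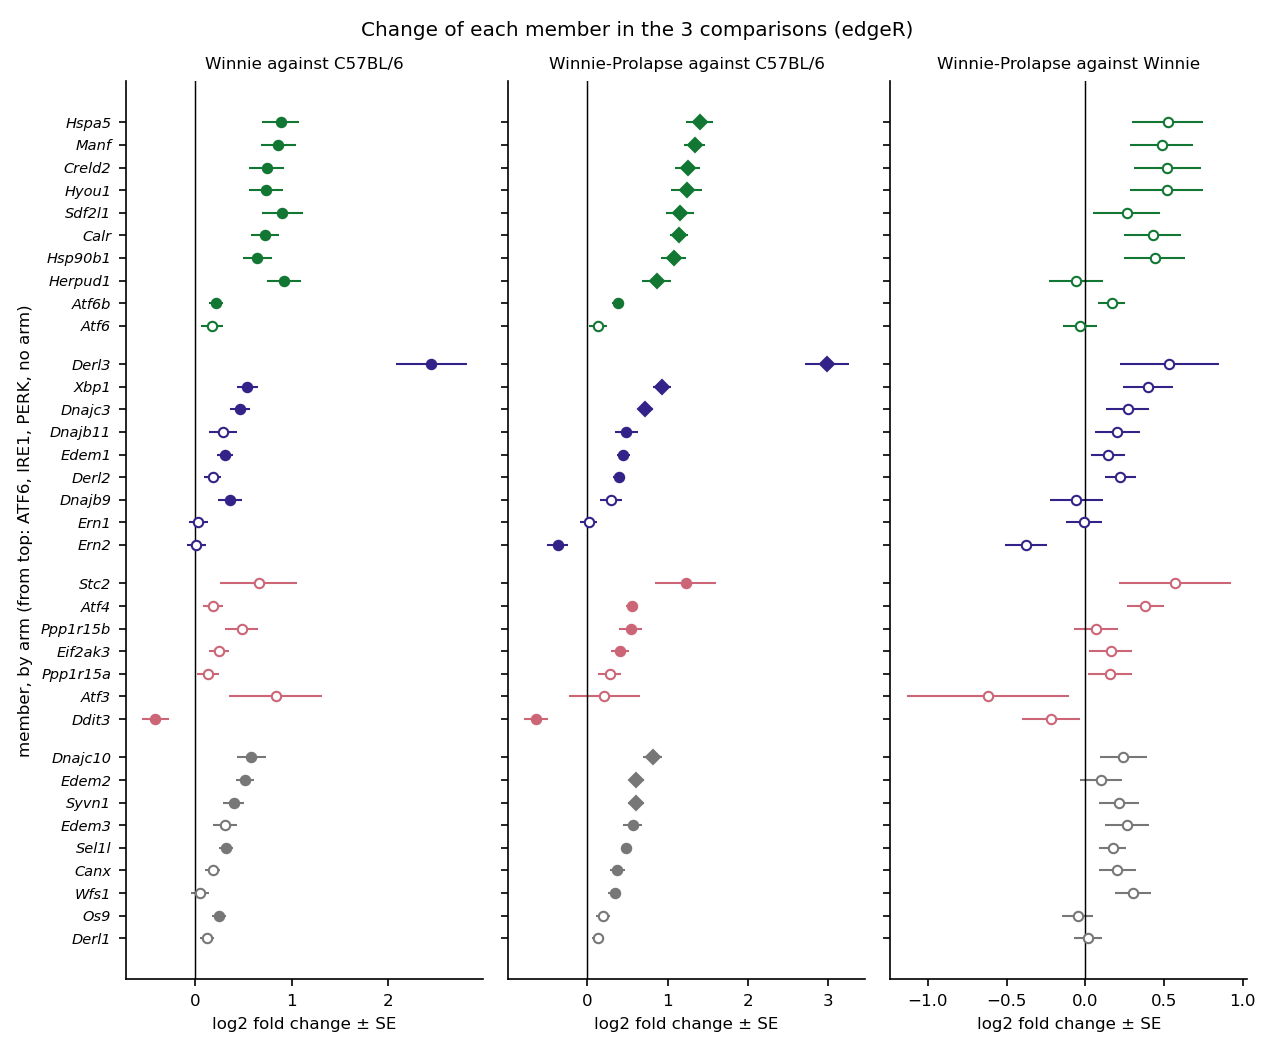
Log2 fold change ± SE of each member in 3 panels, Winnie minus C57BL/6, then Winnie-Prolapse minus C57BL/6, then Winnie-Prolapse minus Winnie, by arm from top to bottom. Filled symbols passed an adjusted p of 0.05, diamonds also the stricter limit, and open symbols neither; Derl3 lies farthest right at 2.45 and 2.98 in the first pair of panels and no symbol is filled in the third.

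The degradation genes had lower median log2 fold changes (0.31 in Winnie and 0.53 in Winnie-Prolapse) than the chaperones (0.68 and 1.11), while Derl3 had the largest of all members. Of the 10, 7 rose in Winnie and 8 in Winnie-Prolapse, and 4 (Derl3, Herpud1, Edem2 and Syvn1) passed the stricter limit in Winnie-Prolapse. The shares of all genes were 13.8% and 26.5% for rises, and 9.84% for the stricter limit upwards in Winnie-Prolapse. Derl3 (chromosome 10, 75893413 to 75895941) belongs to the derlins, which pass substrates through the ER membrane. It was counted 14 to 62 times per C57BL/6 library, and its level was 0.489 to 2.08 normalised CPM there (median 1.27), 2.32 to 10.6 in Winnie (median 7.12) and 5.59 to 12.0 in Winnie-Prolapse (median 10.4). The lowest Winnie value, in replicate 3, lay above the highest C57BL/6 value. Derl3 rose by 2.45 ± 0.37 (5.46-fold) in Winnie (adjusted p = 0.00132) and by 2.98 ± 0.27 (7.9-fold) in Winnie-Prolapse (adjusted p = 8.87e-07). Of its relatives, Derl1 differed by 0.12 ± 0.07 (adjusted p = 0.203) and 0.13 ± 0.08 (adjusted p = 0.158), and Derl2 by 0.18 ± 0.09 in Winnie (adjusted p = 0.142), with a rise of 0.40 ± 0.07 in Winnie-Prolapse (adjusted p = 0.000365).

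Herpud1 (chromosome 8, 94386438 to 94395377) ranged from 67.2 to 159 normalised CPM in C57BL/6 (median 116), from 143 to 266 in Winnie (median 227) and from 134 to 276 in Winnie-Prolapse (median 198). It rose by 0.92 ± 0.18 in Winnie (adjusted p = 0.00413) and by 0.86 ± 0.18 in Winnie-Prolapse. The adjusted p in Winnie-Prolapse was 0.000971, just inside the stricter limit, and 13 of the 15 fits that leave out a library put it outside, up to 0.00426 without Winnie-Prolapse replicate 7. C57BL/6 replicate 7 had the lowest Herpud1 level of its group although it had the highest Hspa5 level.

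The genes of the mannosidase-like Edem proteins, which mark glycoproteins for degradation, all rose in Winnie-Prolapse. Edem2 rose by 0.51 ± 0.10 in Winnie (adjusted p = 0.00376) and 0.61 ± 0.09 in Winnie-Prolapse (adjusted p = 7.62e-05), and Edem1 by 0.31 ± 0.08 (adjusted p = 0.0172) and 0.45 ± 0.08 (adjusted p = 0.000398). Edem3 did not pass in Winnie (0.31 ± 0.13, adjusted p = 0.0843) and rose in Winnie-Prolapse (0.56 ± 0.12, adjusted p = 0.0013). Edem2 stayed past the stricter limit in 11 of the 15 fits without a library. The ubiquitin ligase Syvn1 (HRD1) and its partner Sel1l rose together, Syvn1 by 0.40 ± 0.11 (adjusted p = 0.0165) and 0.60 ± 0.10 (adjusted p = 0.000129), a stricter call kept in 13 of the 15 fits, and Sel1l by 0.32 ± 0.08 (adjusted p = 0.0098) and 0.49 ± 0.07 (adjusted p = 4.42e-05). Os9, the lectin that hands substrates to Sel1l, rose in Winnie by 0.24 ± 0.07 (adjusted p = 0.0188) and did not pass in Winnie-Prolapse (0.19 ± 0.09, adjusted p = 0.0771).

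The sensors had the lowest median log2 fold change of the role groups, 0.17 in Winnie and 0.13 in Winnie-Prolapse. Of the 5 sensor genes, only Atf6b rose in Winnie, by 0.21 ± 0.07 (adjusted p = 0.0381), a call kept in 4 of the 15 fits without a library. Rises made up 13.8% of all genes in Winnie and 26.5% in Winnie-Prolapse. In Winnie-Prolapse Atf6b rose by 0.38 ± 0.06 (adjusted p = 0.000172) and Eif2ak3 by 0.41 ± 0.11 (adjusted p = 0.00687). Eif2ak3 had 27.7 to 40.7 normalised CPM in C57BL/6 (median 35.8), 32.2 to 51.3 in Winnie (median 39.7) and 34.3 to 56.9 in Winnie-Prolapse (median 48.2), and the groups overlapped. Ern1 did not pass in either comparison, with intervals of the log2 fold change from -0.17 to 0.23 in Winnie and from -0.19 to 0.22 in Winnie-Prolapse. For Atf6 the intervals were -0.06 to 0.40 and -0.09 to 0.36.

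Ern2 (chromosome 7, 122169893 to 122186207), the IRE1 relative of mucus-secreting cells, was 1 of the 2 members that fell in Winnie-Prolapse. It had 56.3 to 96.6 normalised CPM in C57BL/6 (median 83.0), 66.9 to 95.3 in Winnie (median 84.5) and 46.4 to 93.6 in Winnie-Prolapse (median 59.5). Of the Winnie-Prolapse libraries, 2 lay below all C57BL/6 libraries. The lowest C57BL/6 level came from replicate 7, and the next lowest was 76.2 in replicate 5. All Winnie-Prolapse libraries but replicate 1 had at most 68.9. Ern2 differed by 0.01 ± 0.10 in Winnie (adjusted p = 0.953) and by -0.37 ± 0.13 in Winnie-Prolapse (adjusted p = 0.0296). The fall was kept in 8 of the 15 fits without a library and reached an adjusted p of 0.074 without Winnie-Prolapse replicate 2. The summed level of 8 goblet cell markers (Fcgbp, Muc2 and Zg16 highest over all 22 libraries) was 10371 to 14707 normalised CPM in C57BL/6 (median 11940, with 0 markers at 0), 5512 to 23226 in Winnie (median 8628) and 2904 to 12131 in Winnie-Prolapse (median 3752). Of these 8 markers, 0 fell and 1 rose in Winnie, where 11.9% of all genes fell and 13.8% rose. In Winnie-Prolapse 3 fell and 1 rose, where 26% of all genes fell and 26.5% rose. In bulk tissue, fewer cells of a type and less RNA per cell cannot be told apart, and the part of goblet cell RNA in the Ern2 level was not tested.

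**Figure D3:**
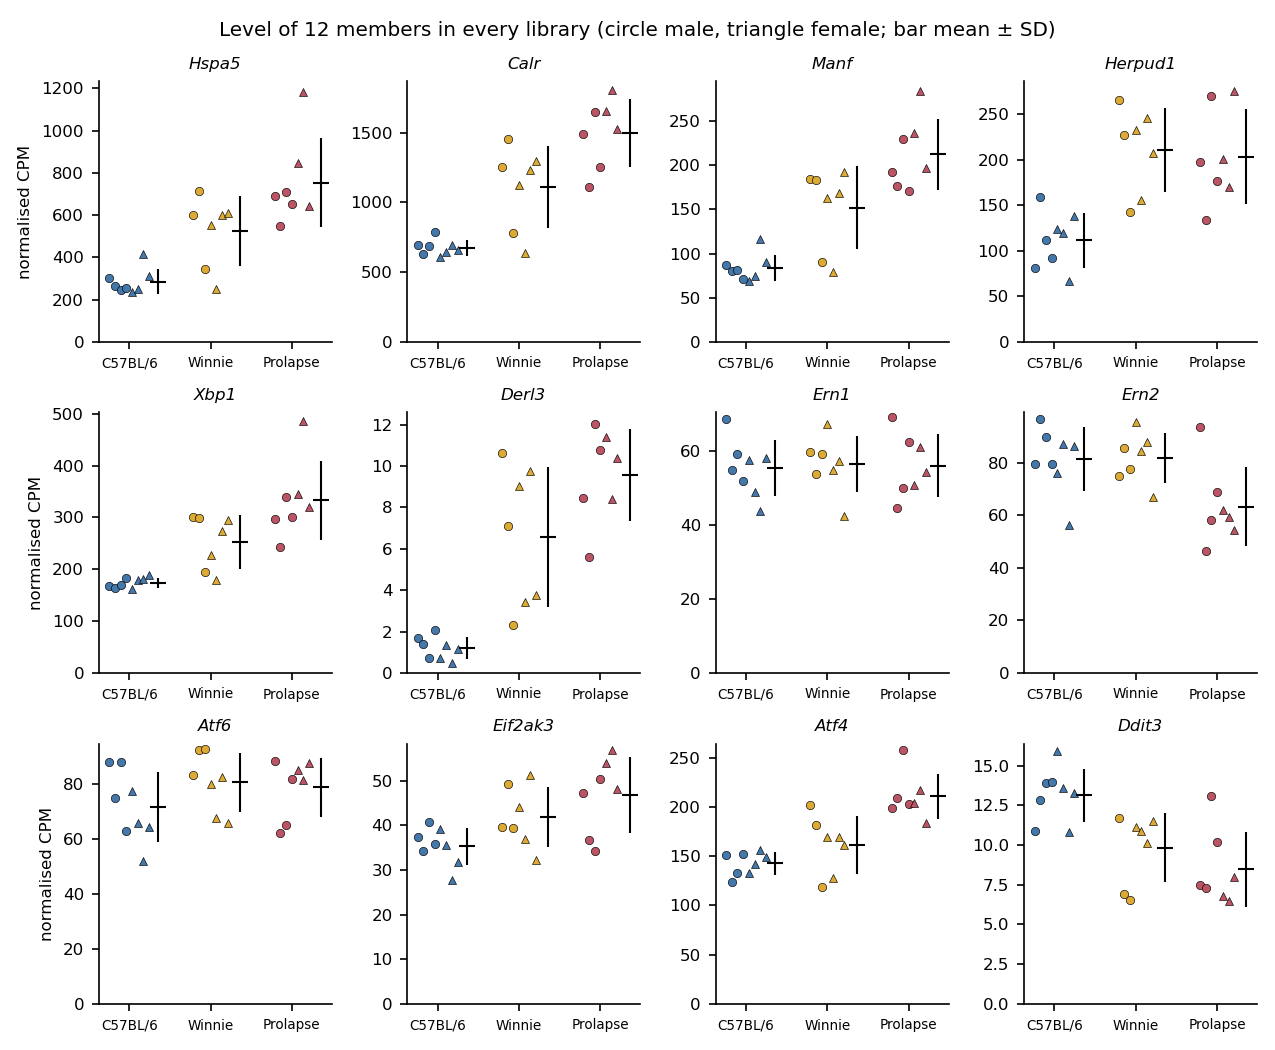
Normalised CPM of 12 members in every library, one panel per gene with its own axis from 0, with circles for males, triangles for females and a bar for the mean ± SD of each group. Hspa5, Calr, Manf, Xbp1 and Derl3 climb from C57BL/6 to Winnie-Prolapse, Ern1 and Atf6 stay level, and Ddit3 and Ern2 lie lowest in Winnie-Prolapse.

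Xbp1 (chromosome 11, 5520659 to 5525893), the substrate of IRE1, ranged narrowly in C57BL/6, from 161 to 188 normalised CPM (median 174). It had 178 to 299.9 in Winnie (median 273) and 242 to 486 in Winnie-Prolapse (median 319). Of the Winnie libraries, 6 of 7 lay above all C57BL/6 libraries, and all 7 of Winnie-Prolapse did. Xbp1 rose by 0.54 ± 0.11 (adjusted p = 0.00524) and by 0.93 ± 0.12 (adjusted p = 1.23e-05). These counts sum the spliced and unspliced forms.

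In the PERK arm, 0 of 7 genes rose and 1 fell in Winnie, where 13.8% of all genes rose and 11.9% fell. In Winnie-Prolapse 4 rose and 1 fell, where 26.5% of all genes rose and 26% fell. None of the 7 passed the stricter limit in either comparison. In Winnie-Prolapse 9.84% of all genes passed it upwards and 8.47% downwards. Atf4 (chromosome 15, 80255184 to 80257541), the transcription factor whose translation PERK favours, had 124 to 156 normalised CPM in C57BL/6 (median 146), 119 to 202 in Winnie (median 169) and 184 to 258 in Winnie-Prolapse (median 205). The Winnie range enclosed the C57BL/6 range, while all Winnie-Prolapse libraries lay above it. Atf4 differed by 0.18 ± 0.10 in Winnie (adjusted p = 0.1995) and rose by 0.56 ± 0.08 in Winnie-Prolapse (adjusted p = 4.002e-05).

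Ddit3 (chromosome 10, 127290774 to 127296288) encodes CHOP, a target of ATF4 linked to cell death. It was the single member lower in both comparisons. Its level was 10.8 to 15.9 normalised CPM in C57BL/6 (median 13.4), 6.53 to 11.7 in Winnie (median 10.9) and 6.47 to 13.1 in Winnie-Prolapse (median 7.45). Below all C57BL/6 libraries lay 3 Winnie and 6 Winnie-Prolapse libraries. Ddit3 fell by 0.42 ± 0.14 in Winnie (adjusted p = 0.039) and by 0.64 ± 0.15 in Winnie-Prolapse (adjusted p = 0.001996). The fall in Winnie was lost in 9 of the 15 fits without a library, with an adjusted p up to 0.0773 without Winnie replicate 2.

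Ppp1r15b, which restores translation by dephosphorylating eIF2α, rose in Winnie-Prolapse by 0.54 ± 0.15 (adjusted p = 0.00562) and missed the limit in Winnie (0.48 ± 0.17, adjusted p = 0.05255). The stress-induced Ppp1r15a did not pass in either (0.13 ± 0.11, adjusted p = 0.431, and 0.28 ± 0.15, adjusted p = 0.121). Stc2, a secreted glycoprotein, varied widely, from 4.54 to 26.1 normalised CPM in C57BL/6 (median 7.37), from 6.31 to 34.9 in Winnie (median 14.6) and from 12.4 to 43.6 in Winnie-Prolapse (median 23.6). It rose in Winnie-Prolapse by 1.22 ± 0.38 (adjusted p = 0.014). Atf3 had the largest CV of all members in Winnie (70.0%) and Winnie-Prolapse (83.1%), with 11.5 to 79.9 in C57BL/6 (median 42.0), 15.9 to 136 in Winnie (median 67.9) and 19.2 to 134 in Winnie-Prolapse (median 33.7). Its changes of 0.83 ± 0.48 (adjusted p = 0.209) and 0.21 ± 0.44 (adjusted p = 0.703) were within this spread. Wfs1, an ER membrane protein placed in no arm, differed by 0.05 ± 0.09 in Winnie (adjusted p = 0.722) and rose by 0.34 ± 0.08 in Winnie-Prolapse (adjusted p = 0.0026).

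Set side by side, the ATF6 arm had the highest share of genes that rose and the highest median. In Winnie, 9 of its 10 genes rose, with a median log2 fold change of 0.73, where 13.8% of all genes rose and 11.9% fell. In the IRE1 arm 5 of 9 rose (median 0.31), and among genes in no arm 5 of 9 (median 0.31). In the PERK arm 0 of 7 rose and 1 fell (median 0.25). In Winnie-Prolapse, where 26.5% of all genes rose, 26% fell and 9.84% passed the stricter limit upwards, 9 of 10 ATF6 genes rose (median 1.15). Of these 9, 8 passed the stricter limit. There, 6 of 9 IRE1 genes rose and 1 fell (median 0.45), 4 of 7 PERK genes rose and 1 fell (median 0.41) and 7 of 9 genes in no arm rose (median 0.49). The ATF4 and CHOP targets Chac1 and Trib3, described below, were listed among the other pathway genes and not in the PERK arm. Both rose in both comparisons with C57BL/6. No test was made between arms, because the genes of an arm are not replicates.

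**Figure D4:**
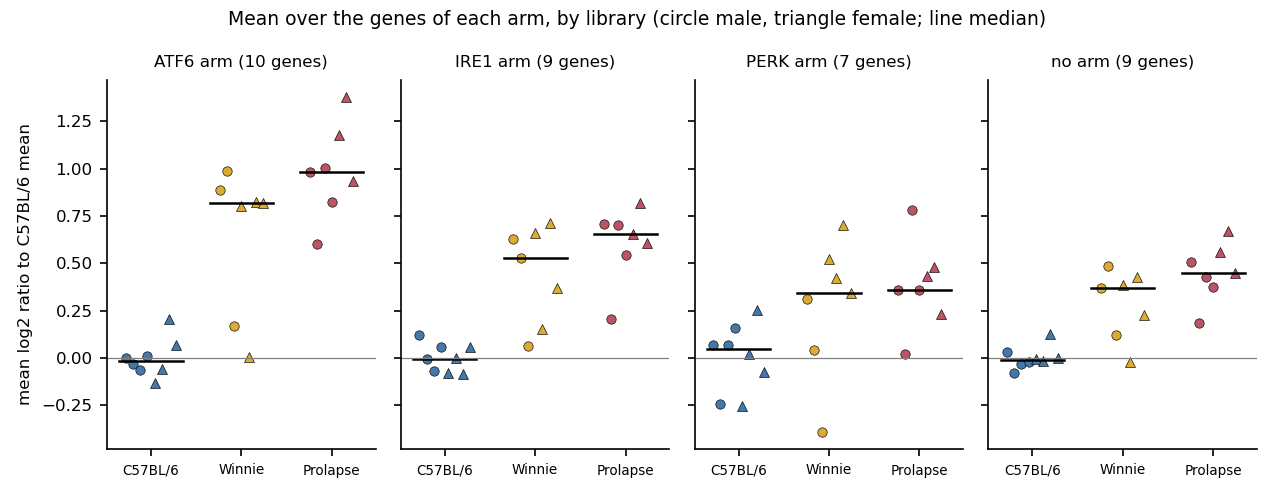
Mean log2 ratio to the C57BL/6 mean over the genes of each arm, one point per library (circles males, triangles females) with the group median as a line. For the ATF6 arm all 7 Winnie-Prolapse libraries lie between 0.60 and 1.38, above the C57BL/6 range of -0.13 to 0.21, while for the PERK arm the groups overlap.

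By library, the mean log2 ratio of the ATF6 arm was -0.13 to 0.21 in C57BL/6 (median -0.02), 0.0039 to 0.99 in Winnie (median 0.82) and 0.60 to 1.38 in Winnie-Prolapse (median 0.98). Winnie replicate 5 was lowest and replicate 3 next, at 0.17. For the PERK arm the ranges were -0.26 to 0.25 (median 0.05), -0.39 to 0.70 (median 0.34) and 0.02 to 0.78 (median 0.36), and all 3 groups overlapped. For the IRE1 arm they were -0.09 to 0.12 (median -0.004), 0.07 to 0.71 (median 0.53) and 0.21 to 0.82 (median 0.65), so that the Winnie-Prolapse range lay above that of C57BL/6.

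Of the 8 members with an ERSE in the promoter, 7 rose in Winnie and 8 in Winnie-Prolapse, 7 of them past the stricter limit. Their median log2 fold change was 0.68 and 1.11. Over all genes, 13.8% rose and 11.9% fell in Winnie, and 26.5% rose and 26% fell in Winnie-Prolapse. There, 9.84% of all genes passed the stricter limit upwards. Of the 21 members searched that lack the element, 10 rose and 1 fell in Winnie (median 0.31) and 15 rose and 1 fell in Winnie-Prolapse (median 0.45). The part of the element in this difference was not tested. Outside the members, 29 other genes held an ERSE, and 10 of them were tested under the same symbol. Among these 10, 2 rose in Winnie, and 6 rose and 1 fell in Winnie-Prolapse. The protein disulphide isomerase Pdia6 was one of them, at 0.68 ± 0.15 in Winnie (adjusted p = 0.007905) and 0.96 ± 0.14 in Winnie-Prolapse (adjusted p = 6.58e-05). Pdia6 is also counted among the other pathway genes below. Spats2l rose more, by 1.18 ± 0.25 (adjusted p = 0.00562) and 1.59 ± 0.13 (adjusted p = 3.02e-07). The gene that fell was Pan2, at -0.44 ± 0.08 in Winnie-Prolapse (adjusted p = 0.000467).

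A further 55 genes of the pathway were examined, covering disulphide formation, translocation into the ER, glycan trimming, dislocation by the p97 complex, stress-linked transcription factors, targets of ATF4 and cell death. All were tested, 5 of them found by an older symbol. In Winnie 26 rose and 1 fell, where 13.8% of all genes rose and 11.9% fell. Past the stricter limit there were 2 rises (Chac1 and Trib3) and 0 falls, against 0.0868% and 0.00578% of all genes. In Winnie-Prolapse 37 rose and 2 fell, where 26.5% of all genes rose and 26% fell. Of these, 21 and 0 passed the stricter limit, against 9.84% and 8.47% of all genes. The largest rises in Winnie-Prolapse were of 2 ATF4 and CHOP targets, Chac1, which degrades glutathione, and Trib3, an inhibitory pseudokinase. Chac1 rose by 3.79 ± 0.31 (adjusted p = 3.13e-07) and Trib3 by 3.54 ± 0.39 (adjusted p = 4.34e-06), and in Winnie Chac1 had risen by 3.14 ± 0.41 (adjusted p = 0.000959) and Trib3 by 1.77 ± 0.21 (adjusted p = 0.000776). Trib3 remained low, with 0.308 to 0.594 normalised CPM in C57BL/6 and 1.83 to 12.9 in Winnie-Prolapse. Cebpb, a transcription factor that pairs with CHOP, rose by 2.08 ± 0.26 (adjusted p = 1.54e-05), Nupr1, a stress-induced chromatin protein, by 1.27 ± 0.20 (adjusted p = 0.000103), Serp1, a translocon-associated protein, by 1.19 ± 0.16 (adjusted p = 2.165e-05) and Ero1a, the oxidase that drives disulphide formation, by 1.18 ± 0.15 (adjusted p = 1.905e-05).

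Winnie-Prolapse was compared with Winnie to ask what goes with prolapse and 4 more weeks of age. None of the 35 members passed either limit, while 8.74% of all 17041 genes (1489) passed an adjusted p under 0.05 and 0% the stricter limit. Leaving out 1 library moved the count over all genes to between 479 (without Winnie replicate 4) and 2504 (without Winnie replicate 2). Of the members, 11 had an unadjusted p under 0.05, as had 4743 of all genes, a share close to that of the members, and the median log2 fold change was 0.20 over the members and 0.0075 over all genes. The lowest adjusted p was 0.0524, for Atf4, which lay 0.38 ± 0.12 higher in Winnie-Prolapse. DESeq2 called 1 member, Atf4 (adjusted p = 0.0213), and 3254 of all 22036 genes. limma-voom called 0 members and 1090 of 17041 genes, and the fit of all 3 groups together called Xbp1, Atf4 and Wfs1 and 2453 of 17769 genes. Hspa5 differed by 0.52 ± 0.23 (adjusted p = 0.149), Calr by 0.43 ± 0.18 (adjusted p = 0.1398) and Ern2 by -0.38 ± 0.13 (adjusted p = 0.08475). Herpud1 was nearly level (-0.06 ± 0.17, adjusted p = 0.863). Of the 55 other pathway genes, 3 rose, Trib3 by 1.77 ± 0.40 (adjusted p = 0.0221), Cebpb by 1.28 ± 0.28 (adjusted p = 0.0198) and Ero1a by 0.62 ± 0.18 (adjusted p = 0.043).

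The sexes were compared because both were present in every group. The test of the sex by group interaction over 18911 genes called 0 genes (0%) for Winnie and 0 genes (0%) for Winnie-Prolapse in edgeR, with 3 and 2 members and 2476 and 945 of all genes at an unadjusted p under 0.05. The lowest adjusted p-values among members were 0.229 (Atf3) and 0.96. Within males alone, 15 members rose in Winnie, and 5299 of all 17574 genes tested changed in either direction. Within females alone 0 members rose, and 1 gene of all 17260 tested passed, in 4 against 4 mice. Both C57BL/6 replicate 7 and Winnie replicate 5 are female and Winnie replicate 3 is male, and their part in these counts was not tested within a sex. The interaction test called no difference between the sexes. Winnie-Prolapse gave 21 rises among members in males alone, where 4861 of 17394 genes changed in either direction. In females alone it gave 22 rises, where 5632 of 17562 genes changed in either direction.

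Markers of other cells moved with the groups. For the counts below, 13.8% of all genes rose and 11.9% fell in Winnie, and 26.5% rose and 26% fell in Winnie-Prolapse. The summed level of 9 plasma cell markers (Igha, Igkc and Jchain highest, 0 markers at 0) was 765 to 2864 normalised CPM in C57BL/6 (median 1385), 2991 to 12603 in Winnie (median 7906) and 7296 to 15973 in Winnie-Prolapse (median 12010.5), and 6 and 7 of the 9 rose. Winnie replicates 3 and 5, which lay near C57BL/6 in the members, had the lowest Winnie sums of 2991 and 3069. The 7 general epithelial markers (Lgals4, Krt8 and Krt19 highest) summed to 11806 to 14428 normalised CPM in C57BL/6, 12786 to 18898 in Winnie and 11001 to 20698 in Winnie-Prolapse, and 3 and 0 of the 7 rose. All 6 smooth muscle markers (Tagln, Myh11 and Acta2 highest) fell in both comparisons, from a median sum of 7836 in C57BL/6 to 3301 in Winnie and 2352 in Winnie-Prolapse. Winnie replicates 3 and 5 had the highest Winnie sums of these markers, 6877 and 6603, against 2180 to 5864 in the other Winnie libraries. Both lay within the C57BL/6 range of 6417 to 11622.5. The 7 colonocyte markers (Slc26a3, Car4 and Krt20 highest over all 22 libraries) summed to 5995 to 11273 normalised CPM in C57BL/6, 2744 to 10762 in Winnie and 1321 to 7530.0 in Winnie-Prolapse, where 5 fell and 1 rose. The 8 squamous epithelial markers (Sprr1a, Krt14 and Krt5 highest) summed to 3.64 to 45.7, 5.93 to 109.5 and 108 to 3782 in the same order of groups, and the 5 of them tested rose in Winnie-Prolapse. Apart from Amy2b, a gene of the pancreatic acinar list, no marker was at 0 in all libraries of a group. The part of these shifts in the levels of Derl3, Xbp1, Hspa5 and the other members was not tested.

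**Figure D5:**
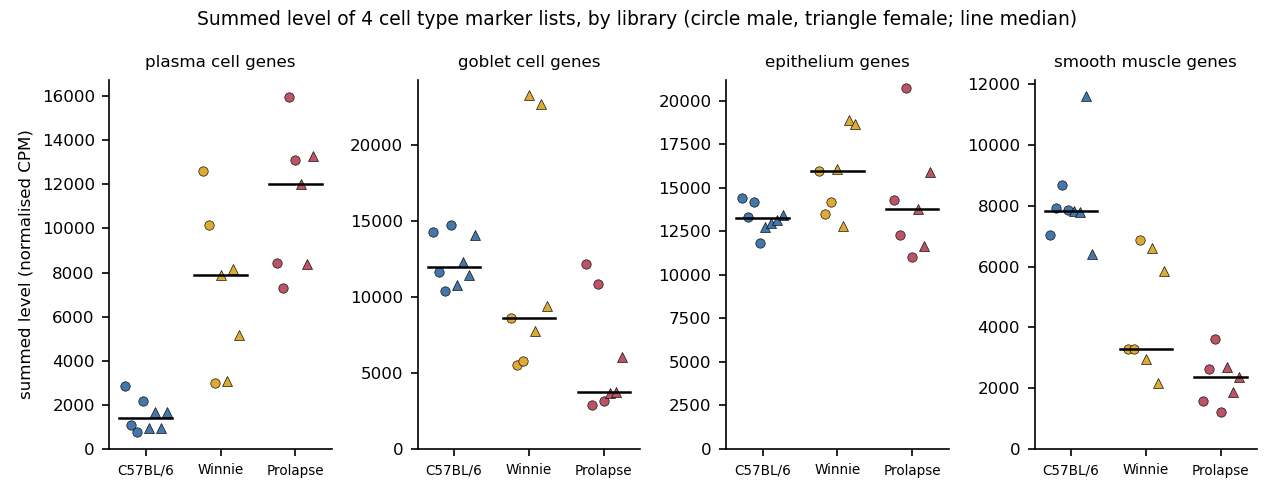
Summed normalised CPM of the plasma cell, goblet cell, general epithelial and smooth muscle marker lists, one point per library (circles males, triangles females) with the group median as a line and each axis from 0. Plasma cell sums rise from a median of 1385 normalised CPM in C57BL/6 to 12010.5 in Winnie-Prolapse, and smooth muscle sums fall.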

How the data were processed

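Distal colon RNA of 22 mice was sequenced as stranded poly(A) libraries in paired ends. The authors ran the RNAsik pipeline on GRCm38; STAR and featureCounts are named in the submitters' processing notes, with no version. The deposited values are raw read counts per gene for 46078 genes, with no normalization. The annotation release, strand setting and treatment of shared reads are not given in the sources used here. Groups and sex were read from the labels; replicate numbers follow the sample list and pair no animals.

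For every comparison only the libraries of its pair of groups were modelled, with edgeR 4.0.16 in R 4.3.3 (quasi-likelihood F test, package defaults, TMM, filterByExpr), with Benjamini-Hochberg adjustment over all genes tested. The SE of a log2 fold change was its size divided by the square root of F. The stricter limit was that of the study, an adjusted p under 0.001 and 1.5-fold. Levels used TMM factors over all 22 libraries; the interaction was fitted over all libraries. Libraries held 24.8 to 36.3 M counts, so that 3 counts came to 0.0825 to 0.121 CPM. This limit covers counting error only, since reads are not independent molecules. Intervals of a change (2 SE) and p-values concern the uncertainty of the mean change under the edgeR model, with mice as the replicates. The closest pair of libraries of a group differed by a chi-square of 28.8 per degree of freedom, so none was counted as a duplicate. The fits were tested on simulated data.

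Locations came from GENCODE M21 on GRCm38 for all 35 members, and promoters from RefSeq on GRCm38.p6. Named were all members, the 6 largest rises among other pathway genes past the stricter limit in Winnie-Prolapse (0 fell), and the 3 markers with the highest mean CPM over all libraries of each list described. Pdia6, Spats2l and Pan2 were chosen after their values were seen. Lists of neutrophil, macrophage, milk protein and pancreatic acinar genes were also counted; against C57BL/6, 4 of 5, 6 of 7, 4 of 4 and 0 of 1 genes tested rose in Winnie-Prolapse, and 1 acinar gene fell. The milk protein sums were 225233 and 57.4 normalised CPM in Winnie-Prolapse replicates 6 and 5 and 2.28 to 4.13 in the other 5, where C57BL/6 had 1.82 to 4.11. The members and lists were chosen with earlier results of these data known. Alternatives were library totals, DESeq2 1.42.0, limma-voom (limma 3.58.1), other filters, sex as covariate, all 3 groups in one fit, each sex alone, a robust fit and leaving out each library; a bias-adjusted fit was added after seeing the data.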

Additional observations from a re-analysis of the deposited data

Results flagged for a closer look

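Each member was examined in each group for a library far from the others of its group (Dixon's test at its 95% critical value). Of 105 sets of values, 10 were marked, where chance marks about 1 in 20 (5.25 sets), and members rise and fall together, so the sets are not independent. C57BL/6 replicate 7 was the highest library in 7 of the 10. It had 415.7 normalised CPM for Hspa5 (next library 309.8), 146.1 for Dnajb11 (107.5), 99.7 for Dnajc10 (66.1), 32.1 for Creld2 (23.4), 116.1 for Manf (90.3), 90.9 for Edem3 (70.8) and 116.1 for Hyou1 (77.9). Its macrophage, smooth muscle and colonocyte marker sums, and the single genes Ly6g, Cela1 and Sprr1a, were also outside the range of the other C57BL/6 libraries, and the part of this in its levels was not tested. Without this library 17 members instead of 14 passed the stricter limit in Winnie-Prolapse against C57BL/6, and 3478 instead of 3186 of all genes.

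Winnie-Prolapse replicate 6, the library with milk protein genes, had 486 normalised CPM for Xbp1 (next library 344.7). Winnie-Prolapse replicate 3 had 134.3 for Atf3 (next 42.0), and Winnie replicate 2 had 27.3 for Wfs1 (next 21.3).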

How the results depend on the processing

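The counts of members that rose were within 1.5 times under all alternatives run but these. In Winnie against C57BL/6, females alone gave 0 instead of 19. In Winnie-Prolapse against Winnie, DESeq2 and the bias-adjusted fit gave 1, all 3 groups in one fit gave 3 and females alone gave 1 higher (Wfs1) and 3 lower (Ern2, Ddit3 and Atf3), instead of 0. For members past the stricter limit in Winnie, DESeq2 gave 6, and no low-count filter and all 3 groups in one fit gave 1 (Derl3), instead of 0; over all genes that limit was passed by 16 genes in edgeR, 1205 in DESeq2, 68 without the filter, 199 with all 3 groups in one fit, 130 in males alone and 0 in females alone. In Winnie-Prolapse, males alone gave 5 and females alone 1 instead of 14 (307 and 255 instead of 3186 over all genes). The count that fell in Winnie went from 1 to 0 without a low-count filter, with all 3 groups in one fit, in males alone and in females alone. The count that fell in Winnie-Prolapse went from 2 to 1 without the filter and in females alone and to 0 in males alone. The cause was not tested. Leaving out 1 library gave 17 to 22 rises, 0 to 1 falls and 0 to 5 stricter calls in Winnie, 26 to 29, 1 to 2 and 11 to 17 in Winnie-Prolapse, and 0 to 2, 0 to 1 and 0 to 0 in Winnie-Prolapse against Winnie; the interaction stayed at 0. Of 20 calls in Winnie 17 held in all 15 such fits, and of 28 in Winnie-Prolapse 27. The 2 rises against Winnie were Atf4 and Wfs1 without Winnie replicate 2 (Atf4 alone without replicate 1), and the fall was Ern2 without Winnie-Prolapse replicate 1. Over all genes, Winnie-Prolapse against Winnie gave 1489 genes at an adjusted p under 0.05, 3254 in DESeq2, 2453 with all 3 groups, 0 in males and 2840 in females, and in DESeq2 Winnie-Prolapse had 5005 stricter calls over C57BL/6 instead of 3186; the Winnie count of 4441 was 1 in females. No called member changed direction in any fit, and members past no limit changed sign 54 times. No paired analysis was possible because the replicate numbers follow the sample list. No scaling moved the median of all genes by 0.1. Depth limits Derl3 most, with as few as 14 counts in a library.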
